A study of Mus musculus with 16 samples.

Results

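The circadian clock genes described here are Per1, Per2, Per3, Cry1, Cry2, Arntl, Clock, Nr1d1, Nr1d2 and Dbp. They were chosen by symbol, through the Ensembl gene ID of each row of the count tables, and make up 10 of the 52636 genes listed. All 10 passed the filter on low counts, after which 21371 genes were tested. The measurements are RNA-sequencing counts from lumbar dorsal root ganglia (DRGs), the clusters of sensory nerve cells beside the spinal cord, in 16 male C57BL/6J mice aged 3 to 4 months. Each of the 4 groups, SNI-DMI, SNI-Saline, Sham-DMI and Sham-Saline, held 4 mice, with 1 mouse per library. SNI is spared nerve injury, in which some branches of the sciatic nerve were tied and cut and the tibial branch was left, and sham mice had surgery without the nerve lesion. DMI is desipramine, a tricyclic antidepressant that blocks the noradrenaline transporter, and it was injected into the abdomen in doses of 15 mg/kg, 2 per day, over 3 weeks, with saline alone for the other mice. No group was left without surgery or without injections. The start of treatment is given as 4 weeks after surgery in the sample labels and as 4 months in the methods. The mice lived under light and dark periods of 12 hours each, and the time of day at which each mouse's DRGs were collected is not given in the sources used here.

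The clock is a loop of transcription and repression that runs in most cells of the body. CLOCK and ARNTL (also called BMAL1) bind DNA as a pair at E-boxes and switch on the Per, Cry, Nr1d1, Nr1d2 and Dbp genes, and the PER and CRY proteins return to the nucleus and block that pair. The nuclear receptors NR1D1 and NR1D2 (REV-ERB alpha and beta) repress Arntl through ROR elements, for which the ROR receptors compete as activators, and DBP carries the rhythm to output genes through D-boxes. In most mouse tissues the mRNAs of Dbp, Nr1d1 and Per3 rise and fall strongly over the day and Arntl runs in the opposite phase, so the moment of collection bears on the level of each of them.

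Promoters of 5 of these genes are shown because Dbp, Nr1d1, Per3 and Nr1d2 had the most negative fold changes under DMI and Arntl had a positive one. The windows come from RefSeq on GRCm38.p6, run from 250 bases before to 50 bases after an annotated transcription start, and are printed in the direction of transcription. Such windows were listed for 9 of the 10 genes, 13 windows in all. Both strands were searched for the E-box CACGTG, its variant CACGTT, the D-box TTATGTAA, its variant TTACGTAA and the ROR element half-site AGGTCA, none of which overlapped another in the windows printed, and matches are in capitals. The Per3 window lies at chr4:151044616-151044915 on the minus strand, that of Nr1d1 at chr11:98775328-98775627 on the minus strand, that of Nr1d2 at chr14:18239057-18239356 on the minus strand, that of Dbp at chr7:45704997-45705296 on the plus strand and that of Arntl at chr7:113207261-113207560 on the plus strand.
Per3: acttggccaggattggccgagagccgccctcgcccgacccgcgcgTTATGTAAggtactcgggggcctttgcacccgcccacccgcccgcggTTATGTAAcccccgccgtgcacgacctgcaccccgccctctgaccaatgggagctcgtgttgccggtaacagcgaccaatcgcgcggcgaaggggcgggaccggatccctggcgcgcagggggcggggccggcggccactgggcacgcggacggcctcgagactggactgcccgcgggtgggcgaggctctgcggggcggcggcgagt
Nr1d1: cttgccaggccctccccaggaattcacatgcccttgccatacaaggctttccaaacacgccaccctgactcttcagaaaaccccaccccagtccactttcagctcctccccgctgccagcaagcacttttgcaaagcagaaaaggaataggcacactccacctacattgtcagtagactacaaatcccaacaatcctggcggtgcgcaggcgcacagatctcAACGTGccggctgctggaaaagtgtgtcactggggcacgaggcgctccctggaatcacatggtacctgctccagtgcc
Nr1d2: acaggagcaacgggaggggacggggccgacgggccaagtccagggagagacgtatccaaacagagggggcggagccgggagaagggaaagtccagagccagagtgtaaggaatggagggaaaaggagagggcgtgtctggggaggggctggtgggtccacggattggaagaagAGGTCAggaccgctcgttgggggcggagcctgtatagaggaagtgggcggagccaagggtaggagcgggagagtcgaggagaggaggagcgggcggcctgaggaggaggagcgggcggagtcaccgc
Dbp: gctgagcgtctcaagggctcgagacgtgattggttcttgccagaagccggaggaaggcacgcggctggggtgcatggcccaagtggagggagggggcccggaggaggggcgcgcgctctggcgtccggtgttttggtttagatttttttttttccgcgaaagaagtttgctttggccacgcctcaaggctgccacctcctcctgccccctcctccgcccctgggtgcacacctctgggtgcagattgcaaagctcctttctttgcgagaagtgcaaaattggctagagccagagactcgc
Arntl: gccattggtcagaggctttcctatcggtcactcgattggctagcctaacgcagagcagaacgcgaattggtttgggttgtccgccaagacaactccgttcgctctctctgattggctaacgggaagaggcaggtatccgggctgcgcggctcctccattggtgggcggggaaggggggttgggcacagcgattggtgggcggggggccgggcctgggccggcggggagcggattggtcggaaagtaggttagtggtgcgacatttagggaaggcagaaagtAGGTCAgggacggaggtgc

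Per3 held the D-box 2 times, at positions -205 and -158 relative to the start, where 0.938% of 32851 RefSeq promoters of the same length held it at all and 0.0213% held it 2 times or more. Nr1d1 held CACGTT, which was in 4.68% of promoters. Nr1d2 and Arntl each held AGGTCA, which was in 16.3%, for Arntl at position 31 after the start. The other Arntl window listed, at chr7:113207215-113207514, held no match. Of the members not printed, Cry1 held both CACGTG and CACGTT, Per1 held CACGTG and AGGTCA, Cry2 held CACGTT and Clock held AGGTCA, and CACGTG was in 7.15% of all promoters. Per1 and Clock each had further windows listed, which held no match. The shares are of windows, not of genes. No TTACGTAA (0.119% of promoters) was found in any member's window. The Dbp window held none of these letters.

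Each library held 41194238 to 73920332 reads on genes. Expression is given as CPM, the read count of a gene relative to the library's TMM-scaled total, and as CPM per kilobase of exon (CPM/kb) where levels of different genes are compared. The samples are labelled as DRG under cell type but as spinal cord under tissue. The 7 sensory neuron markers, among them Avil, Prph and Scn10a, summed to 6020 to 7560 CPM, whereas of the 7 spinal cord markers Olig2, Slc32a1 and Mnx1 were at 0 in at least 1 library and Aqp4 alone exceeded 2 CPM. The 5 markers of injured sensory neurons, which include Atf3 and Sprr1a, summed to 29.6 to 73.3 CPM in the sham groups and to 147 to 268 in the SNI groups. DMI libraries carry numbers 17 to 24 in the labels and saline libraries 33 to 40, and whatever these numbers stand for cannot be told apart from the drug.

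Cry2, one of the repressors, was the most abundant member, with a median of 19.8 CPM/kb over the 16 mice (18.7 to 22.5). Nr1d2 followed at 9.36, Nr1d1 at 7.34, Clock at 5.66, Per1 at 5.22, Cry1 at 3.63 and Dbp at 3.61 CPM/kb. Per3 at 2.23, Per2 at 1.92 and Arntl at 0.908 CPM/kb were lowest. The range over mice overlapped that of the next gene in this order except between Cry2 and Nr1d2 and between Per2 and Arntl. Dbp varied most, with the highest mouse 3.52 times the lowest, followed by Per3 (2.61), Arntl (2.05) and Nr1d1 (2.03). Cry2 varied least, by 1.20. The lowest read count behind any of these values was 265, for Arntl.

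**Figure D1:**
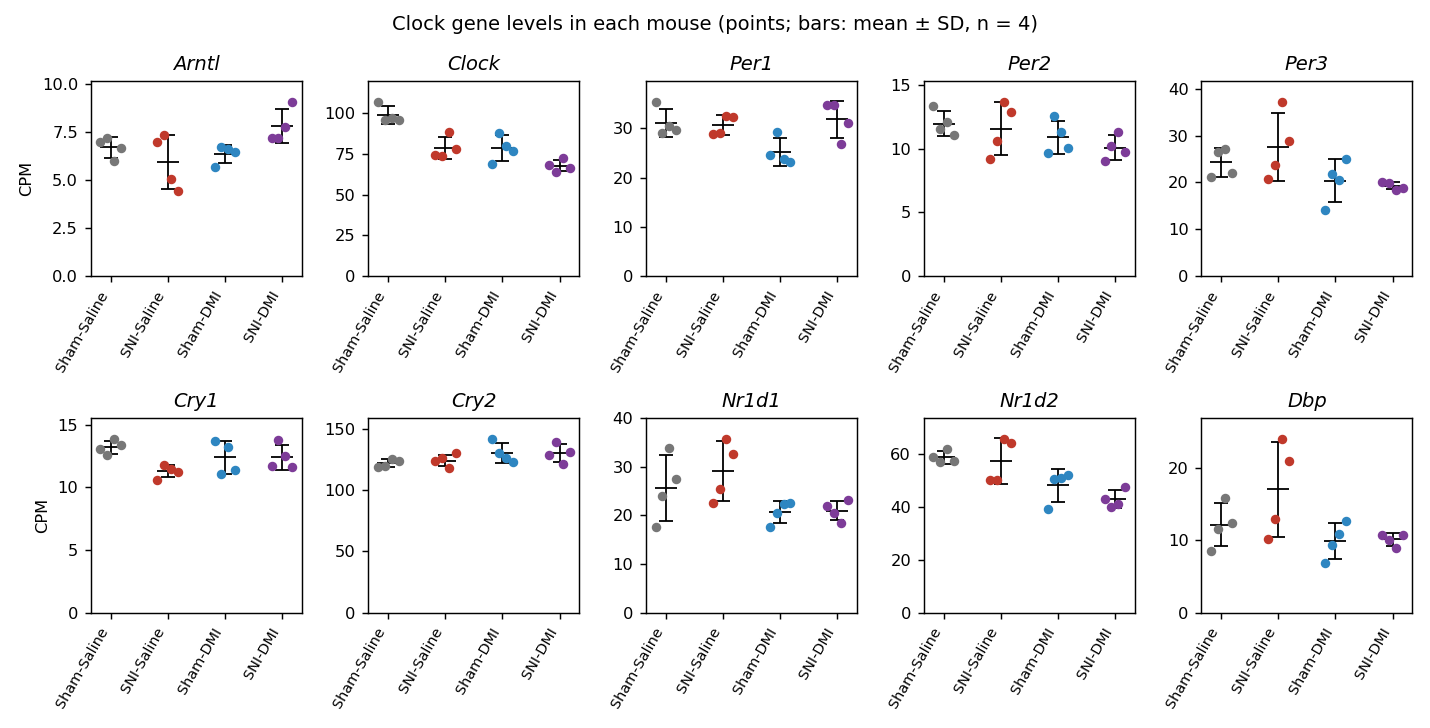
Level of each of the 10 clock genes in CPM (vertical axis, from 0) in each mouse (points) by group, with the mean and SD of 4 mice as black bars. SNI-Saline splits into a low and a high pair of mice for Dbp, at 10.1 and 12.9 against 20.9 and 24 CPM, while the 4 SNI-DMI mice lie between 8.91 and 10.7 CPM.

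The first question was what DMI did to the clock genes over both surgeries. The 8 DMI libraries were compared with the 8 saline libraries as the mean of the effects under sham and under SNI. Of the 10 members 5 were lower with DMI at an adjusted p under 0.1 and none was higher: Dbp, Nr1d1, Per3, Nr1d2 and Clock. Over all genes tested, 30.6% were called in this comparison and 15.8% were called lower. The median log2 fold change (log2FC) of the members was -0.22, against -0.013 for all genes. All tests are edgeR quasi-likelihood tests with Benjamini-Hochberg adjustment over the 21371 genes. In whole ganglia, fewer cells of a type and less RNA per cell cannot be told apart.

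Dbp (ENSMUSG00000059824, chr7:45705088-45710203), the clock's output activator, had the most negative log2FC of the members. The replicates 1 to 4 of Sham-Saline had 8.56, 11.6, 15.8 and 12.4 CPM, and those of SNI-Saline had 10.1, 12.9, 24 and 20.9 CPM. With DMI they had 6.80, 9.32, 10.9 and 12.7 CPM after sham surgery and 10.7, 10, 8.91 and 10.7 CPM after SNI. The 2 high values stood in SNI-Saline, and the DMI and saline groups overlapped under both surgeries. The averaged log2FC was -0.52 ± 0.166 (SE), 0.698-fold, with an edgeR adjusted p of 0.0313.

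Nr1d1 (ENSMUSG00000020889, chr11:98767932-98775333), a repressor of Arntl, had 17.7, 23.9, 33.9 and 27.4 CPM in Sham-Saline and 22.6, 25.4, 35.8 and 32.7 CPM in SNI-Saline. With DMI it had 17.6, 20.6, 22.3 and 22.6 CPM after sham surgery and 22, 20.6, 18.4 and 23.2 CPM after SNI. No DMI mouse was above 23.2 CPM, and 6 of the 8 saline mice were. The averaged log2FC was -0.39 ± 0.114 (SE), with an edgeR adjusted p of 0.0197. Exons of Nr1d1 share 263 bases with Thra and those of Dbp share 539 bases with Sphk2, each on the opposite strand, and whether counting used the strand is not given in the sources used here, so both genes' values are uncertain to that extent. The exons of Cry2 share 295 bases with D930015M05Rik and those of Arntl 33 bases with Gm45355, and the same limit holds for them. Thra (0.14 ± 0.0613, adjusted p = 0.114) and Sphk2 (0.12 ± 0.0513, adjusted p = 0.113) had positive log2FC in the same edgeR comparison.

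Nr1d2 (ENSMUSG00000021775, chr14:18204054-18239127), the second receptor of that loop, had 58.7, 56.8, 62.0 and 57.3 CPM in Sham-Saline and 50, 50, 65.8 and 64.0 CPM in SNI-Saline. With DMI it had 39, 50.4, 50.9 and 52.0 CPM after sham surgery and 43.1, 39.8, 41.2 and 47.6 CPM after SNI. Every DMI mouse was below every saline mouse of its own surgery. This held for 8.51% of all genes in the sham comparison and for 5.97% in the SNI comparison. The share of genes for which it held in both was not computed. The averaged log2FC was -0.35 ± 0.0692 (SE), 0.782-fold, with an edgeR adjusted p of 0.00194.

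Per3 (ENSMUSG00000028957, chr4:151003652-151044665), the member of the Period family whose promoter holds both D-boxes, had 21.1, 26.6, 27.2 and 22.1 CPM in Sham-Saline and 20.7, 23.7, 37.2 and 28.8 CPM in SNI-Saline. With DMI it had 14.2, 21.7, 20.6 and 25.0 CPM after sham surgery and 20.1, 19.8, 18.4 and 18.8 CPM after SNI. The 4 SNI-DMI mice lay close together and below all SNI-Saline mice, as for 5.97% of all genes, and the sham groups overlapped. The averaged log2FC was -0.38 ± 0.114 (SE), with an edgeR adjusted p of 0.0216.

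Clock (ENSMUSG00000029238, chr5:76209868-76304792), the partner of ARNTL, had 107, 95.9, 97.3 and 96.0 CPM in Sham-Saline and 74.6, 73.8, 88.7 and 78.3 CPM in SNI-Saline. With DMI it had 68.6, 87.9, 80.0 and 77.1 CPM after sham surgery and 68.2, 64.1, 72.7 and 66.5 CPM after SNI. Sham-Saline was above every other mouse and SNI-DMI was below SNI-Saline throughout. Over all genes, DMI mice were lower without overlap for 8.51% in the sham comparison and for 5.97% in the SNI comparison. The averaged log2FC was -0.28 ± 0.0511 (SE), with an edgeR adjusted p of 0.00139.

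Arntl (ENSMUSG00000055116, chr7:113207465-113314126), the other activator, had 6.97, 7.17, 5.97 and 6.69 CPM in Sham-Saline and 6.96, 7.33, 5.06 and 4.43 CPM in SNI-Saline. With DMI it had 5.69, 6.71, 6.62 and 6.48 CPM after sham surgery and 7.21, 7.18, 7.75 and 9.07 CPM after SNI. The 2 lowest mice were the SNI-Saline mice with the highest Dbp, and the highest was in SNI-DMI. The averaged log2FC was 0.16 ± 0.0977 (SE), with an edgeR adjusted p of 0.255. The remaining repressors were not called either: Per1 at -0.12 ± 0.0641, Per2 at -0.17 ± 0.0838, Cry1 at 0.02 ± 0.0579 and Cry2 at 0.08 ± 0.0366 (log2FC ± SE), with edgeR adjusted p-values of 0.124 to 0.858.

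These 5 calls were kept in all 16 fits that left out 1 library, but not in every other fit. Leaving out SNI-Saline replicates 3 and 4 together, which were picked after their values were seen, left calls for Nr1d2 (-0.25, adjusted p = 0.0200) and Clock (-0.23, adjusted p = 0.0134) and ended those for Dbp (-0.23, adjusted p = 0.312), Nr1d1 (-0.25, adjusted p = 0.176) and Per3 (-0.22, adjusted p = 0.173). Removing each library's trends of counts on GC content and exon length ended the call for Clock (-0.02, adjusted p = 0.600). Nr1d2 (-0.17, adjusted p = 0.0366), Nr1d1 (-0.42, adjusted p = 0.0144), Per3 (-0.33, adjusted p = 0.0369) and Dbp (-0.54, adjusted p = 0.0276) were still called lower, and Arntl (0.25, adjusted p = 0.0912) and Cry2 (0.09, adjusted p = 0.0716) were called higher. Clock and Nr1d2 have the lowest GC content of the members, 40.9% and 41.8%, against 61.6% for Dbp. The fitted trend added 0.136 to 0.291 on the log2 scale to Clock in Sham-Saline and -0.252 to -0.118 in SNI-DMI. How much of the difference in Clock belongs to that trend was not tested. Nr1d2 was the member called lower in both of these fits.

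**Figure D2:**
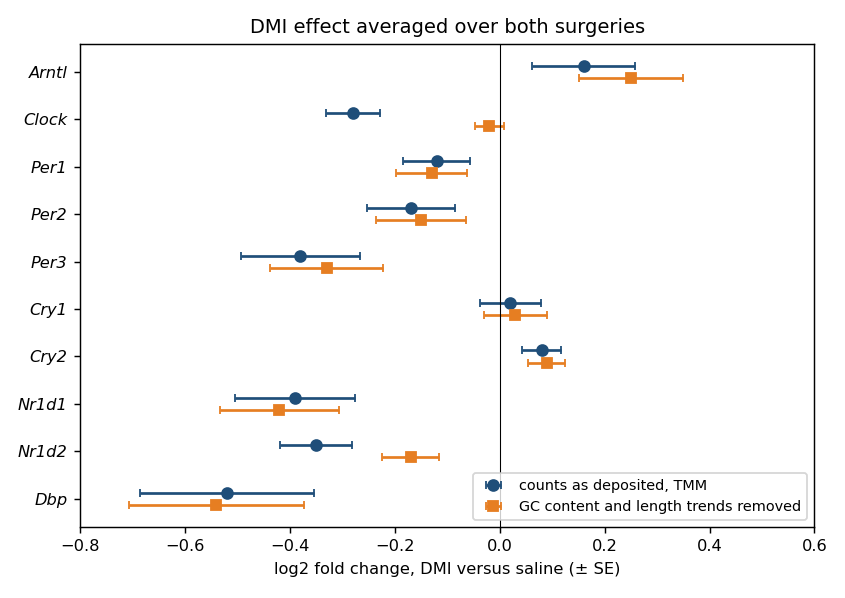
Log2FC with SE (horizontal axis) of DMI versus saline, averaged over both surgeries, for each member, from the counts with TMM scaling (circles) and with the trends on GC content and exon length removed (squares). Clock moves from -0.28 to -0.02 and Nr1d2 from -0.35 to -0.17, whereas Dbp stays at -0.52 and -0.54.

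The summed markers of other cell types are given beside these results, with no test. The 4 neutrophil markers, all of which passed the filter, summed to 2.02 to 7.95 CPM in Sham-DMI mice, against 5.81 to 21.8 in Sham-Saline, and to 2.52 to 6.85 CPM in SNI-DMI mice, against 8.96 to 28.3 in SNI-Saline, with Ly6g at 0 in at least 1 library. The 7 sensory neuron markers summed to 6340 to 7560 CPM in Sham-DMI mice, against 6020 to 6310 in Sham-Saline, and to 6700 to 7070 CPM in SNI-DMI mice, against 6180 to 6850 in SNI-Saline, and none was at 0. The 4 macrophage markers summed to 34.2 to 44.0 CPM in Sham-DMI, against 42.6 to 49.3 in Sham-Saline, and to 40.5 to 69.3 CPM in SNI-DMI, against 48.0 to 78.3 in SNI-Saline. The 4 skeletal muscle markers summed to 2.12 to 3.82 CPM in Sham-DMI, against 1.4 to 44.6 in Sham-Saline. They summed to 1.66 to 251 CPM in SNI-DMI, against 2.47 to 70.2 in SNI-Saline. The 5 blood and marrow markers summed to 21.3 to 86.4 CPM in Sham-DMI, against 28.3 to 106 in Sham-Saline. They summed to 25.3 to 66.3 CPM in SNI-DMI, against 49.3 to 91.3 in SNI-Saline. The ranges of DMI and saline mice overlapped under both surgeries for these lists, the macrophage markers, the 4 satellite glia markers and the 4 Schwann cell markers. Those of the neutrophil markers did not overlap under SNI, and those of the sensory neuron markers did not under sham. The part of any of these lists in the clock gene differences was not tested.

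The second question was what DMI did in injured mice, SNI-DMI against SNI-Saline. Nr1d2 fell by 0.42 ± 0.0980 (SE) on the log2 scale, 0.748-fold, with an edgeR adjusted p of 0.0674, and was the one member called, where 2.93% of all genes were called and 1.61% were called lower. Dbp (-0.75 ± 0.234, adjusted p = 0.114), Per3 (-0.52 ± 0.161, adjusted p = 0.115) and Nr1d1 (-0.47 ± 0.161, adjusted p = 0.137) had larger negative log2FC and Arntl a positive one (0.39 ± 0.138, adjusted p = 0.145), none of which passed. The study's cut-offs for DEGs, used there with DESeq2, are a nominal p under 0.05 and a log2FC of at least 0.32 in either direction. Applied here to the edgeR fit on all 16 libraries, they were passed by 5 members, where 5.73% of all genes passed. Nr1d2, Dbp, Per3 and Nr1d1 were lower and Arntl was higher. Per3, Clock and Nr1d2 did not overlap between the groups, as did 5.97% of all genes in the lower direction.

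The count of members called under SNI depended on the fit. DESeq2 called 6, edgeR on the 8 libraries of these groups alone called 5, and without the GC content and length trends no member was called (Nr1d2 -0.26, adjusted p = 0.142). Nr1d2 lost its call without any 1 of SNI-Saline replicates 1, 3 or 4 or SNI-DMI replicates 1, 2 or 3, and 4 members were called without SNI-Saline replicate 2 or without Sham-DMI replicate 1. With SNI-Saline replicates 3 and 4 both left out, no member was called and the log2FC of Dbp was -0.19 (adjusted p = 0.826), that of Nr1d2 -0.22 (adjusted p = 0.554) and that of Arntl 0.13 (adjusted p = 0.798).

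In sham mice, Sham-DMI against Sham-Saline, 3 members were lower: Clock by a log2FC of -0.34 ± 0.0721 (adjusted p = 0.00559), Per1 of -0.30 ± 0.0909 (adjusted p = 0.0311) and Nr1d2 of -0.29 ± 0.0978 (adjusted p = 0.0513), all in the edgeR fit. Of all genes 23.4% were called here and 11.9% were called lower. Per1 (ENSMUSG00000020893, chr11:69095217-69109960), the Period gene best known for quick induction by light and stress hormones, had 35.4, 29.1, 30.4 and 29.6 CPM in Sham-Saline and 24.6, 29.3, 23.8 and 23.2 CPM in Sham-DMI. Sham-DMI replicate 2 lay within the Sham-Saline range and the other 3 lay below it. Without the trends on GC content and length, Per1 (-0.26, adjusted p = 0.0727) was still called, Clock (-0.02, adjusted p = 0.741) and Nr1d2 (-0.07, adjusted p = 0.579) were not, and Cry2 was called higher (0.14, adjusted p = 0.0556). Nr1d2 also lost its call with the surrogate variable and without any 1 of Sham-Saline replicates 1 or 3 or Sham-DMI replicate 1, and Per1 without Sham-Saline replicate 1 or Sham-DMI replicate 4. Dbp (-0.29 ± 0.235, adjusted p = 0.448), Nr1d1 (-0.31 ± 0.161, adjusted p = 0.203) and Per3 (-0.25 ± 0.161, adjusted p = 0.312) had negative values that did not pass.

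Whether the effect of DMI differed between SNI and sham mice was tested as an interaction. No member and no gene was called (0.0% of 21371), with 1692 genes at a nominal p under 0.05 and 16 genes, none a member, called by DESeq2. Per1 came nearest, with a difference of 0.36 ± 0.128 (SE) on the log2 scale between its effect under SNI (0.06) and under sham (-0.30), a nominal p of 0.0124 and an edgeR adjusted p of 0.619. Arntl followed, with 0.47 ± 0.195, a nominal p of 0.0280 and the same adjusted p. SNI-DMI mice had 34.8, 34.8, 26.9 and 31.1 CPM of Per1, and SNI-Saline mice 28.9, 29.0, 32.5 and 32.4 CPM.

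**Figure D3:**
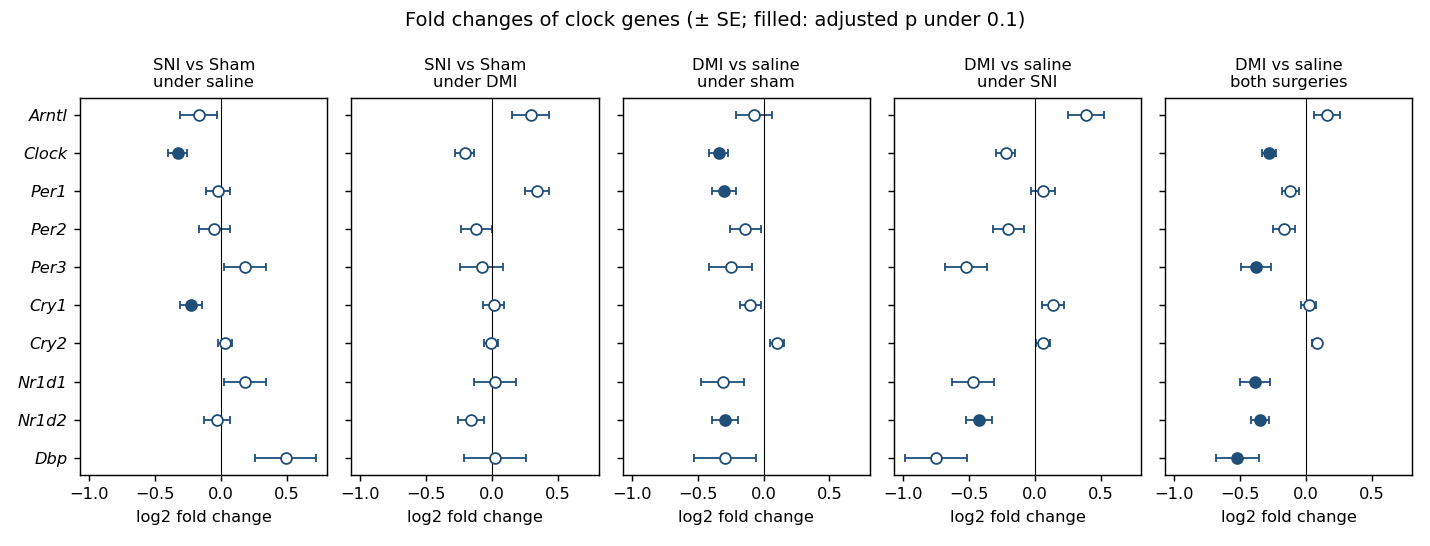
Log2FC with SE (horizontal axis, common to all panels) of the 10 members in 5 comparisons, with filled circles at an edgeR adjusted p under 0.1. Under SNI, Dbp at -0.75 lies farthest below 0 and Arntl at 0.39 farthest above, both unfilled; with both surgeries averaged, 5 circles are filled and all lie below 0.

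The effect of injury was asked separately under saline and under DMI. Under saline, SNI lowered Clock (-0.33 ± 0.0721, edgeR adjusted p = 0.0183) and Cry1 (-0.23 ± 0.0819, edgeR adjusted p = 0.0966), with 12% of all genes called and 6.18% called lower, and no member was called higher. Cry1 (ENSMUSG00000020038, chr10:85131700-85185064), the stronger repressor of the loop in many settings, had 13.1, 12.6, 13.9 and 13.4 CPM in Sham-Saline and 10.6, 11.8, 11.5 and 11.2 CPM in SNI-Saline, without overlap, as for 7.74% of all genes in that direction. Its call was kept in 5 of 16 fits with 1 library left out and that of Clock in all 16. Without the GC content and length trends Clock was not called (-0.12, adjusted p = 0.117) and Cry1 was (-0.28, adjusted p = 0.0916). Dbp was at 0.49 ± 0.232 (adjusted p = 0.214), with the excess in SNI-Saline replicates 3 and 4, without which it was at -0.06.

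Under DMI no member was called for injury, where 86 genes, or 0.402%, were called. Per1 had the smallest p of the members, with a log2FC of 0.34 ± 0.0909 (SE), a nominal p of 0.00152 and an edgeR adjusted p of 0.155. DESeq2 and the fit with no filter on low counts each called 1 member. Arntl was higher in every SNI-DMI mouse than in every Sham-DMI mouse (0.29 ± 0.138, adjusted p = 0.406), as were 2.89% of all genes. For Cry2 the log2FC of injury was 0.03 ± 0.0518 (SE) under saline and -0.01 ± 0.0518 under DMI, and neither passed the test.

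SNI-Saline replicates 3 and 4 differed from the other 14 mice in several members at once. The ratio of Dbp to Arntl CPM was 4.73 and 4.71 in these mice and ran from 1.15 to 2.64 in the others. The same mice had the highest Per3 (37.2 and 28.8 CPM), and high Ciart, a clock-controlled repressor (6.70 and 5.93 CPM against 3.01 to 4.02 elsewhere). Sham-Saline replicate 3 had the next highest Dbp, 15.8 CPM, and with 33.9 CPM of Nr1d1 lay between these mice.

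The members were therefore compared across mice within groups, as deviations of log2 CPM from the group mean over 16 libraries, with 45 pairs and 100000 permutations within groups. Of these pairs 7 passed an adjusted p under 0.1, all with a positive r, and 6 of them involve Dbp, Nr1d1, Nr1d2 and Per3, that is, every pair among these 4 genes. Pairs of other genes were not tested in this way, so whether such values are particular to the members is not known. Nr1d1 and Dbp were closest (Pearson r = 0.92, Spearman rho = 0.94, permutation p = 1e-05 for each, the smallest that the permutations can give, adjusted p = 0.00045). For each pair, r was also taken without the 2 mice farthest from the median of the first-named gene. For Nr1d1 these were Sham-Saline replicates 1 and 3, and r was then 0.96. Leaving out SNI-Saline replicates 3 and 4 together was not tried for the correlations. The r of Nr1d1 and Dbp was 0.94 within the 8 saline libraries and 0.90 within the 8 DMI libraries. Per3 and Dbp followed (r = 0.89, rho = 0.82, permutation p = 0.00045 and 0.00415, adjusted p = 0.0101 and 0.0467, 0.86 without 2 mice), with 0.90 and 0.91 within the saline and the DMI libraries. For Nr1d2 and Dbp r was 0.83 (rho = 0.85, permutation p = 0.00176 and 0.00058, adjusted p = 0.0171 and 0.0130, 0.76 without 2 mice). These 3 pairs had a positive r within each of the 4 groups.

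The other pairs among these genes were Per3 with Nr1d2 (r = 0.81, rho = 0.72, permutation p = 0.00899 and 0.0128, adjusted p = 0.0578 and 0.0959, 0.67 without 2 mice, but -0.24 within the 4 SNI-DMI mice), Per3 with Nr1d1 (r = 0.73, rho = 0.71, permutation p = 0.00228 and 0.0169, adjusted p = 0.0171 and 0.109, 0.69 without 2 mice) and Nr1d1 with Nr1d2 (r = 0.69, rho = 0.80, permutation p = 0.00209 and 0.00101, adjusted p = 0.0171 and 0.0151, 0.88 without 2 mice). The rho of Per3 with Nr1d1 missed the threshold. Outside them, Per2 went with Clock (r = 0.79, rho = 0.76, permutation p = 0.00167 and 0.00745, adjusted p = 0.0171 and 0.0670, 0.78 without 2 mice). Arntl and Dbp had r = -0.53 (rho = -0.52, permutation p = 0.215 and 0.150, adjusted p = 0.456 and 0.462, -0.42 without 2 mice), which did not pass. Its sign was not the same in both sets of libraries, with r = -0.84 in the 8 saline libraries and 0.47 in the 8 DMI libraries, a difference that was not tested.

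**Figure D4:**
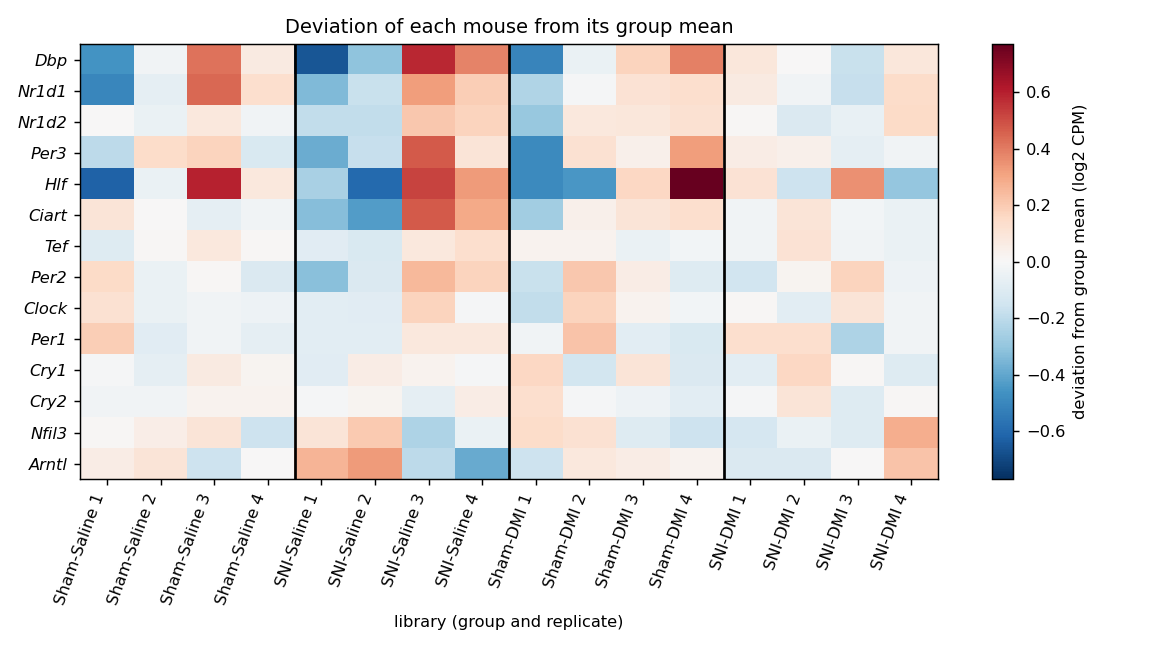
Deviation of log2 CPM from the group mean (colour, red above and blue below) for the 10 members and for Hlf, Ciart, Tef and Nfil3 (rows) in each library (columns, groups parted by black lines). The rows of Dbp, Nr1d1, Nr1d2 and Per3 are red in SNI-Saline 3 and 4 and blue in SNI-Saline 1 and 2, where Arntl has the opposite colours.

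**Figure D5:**
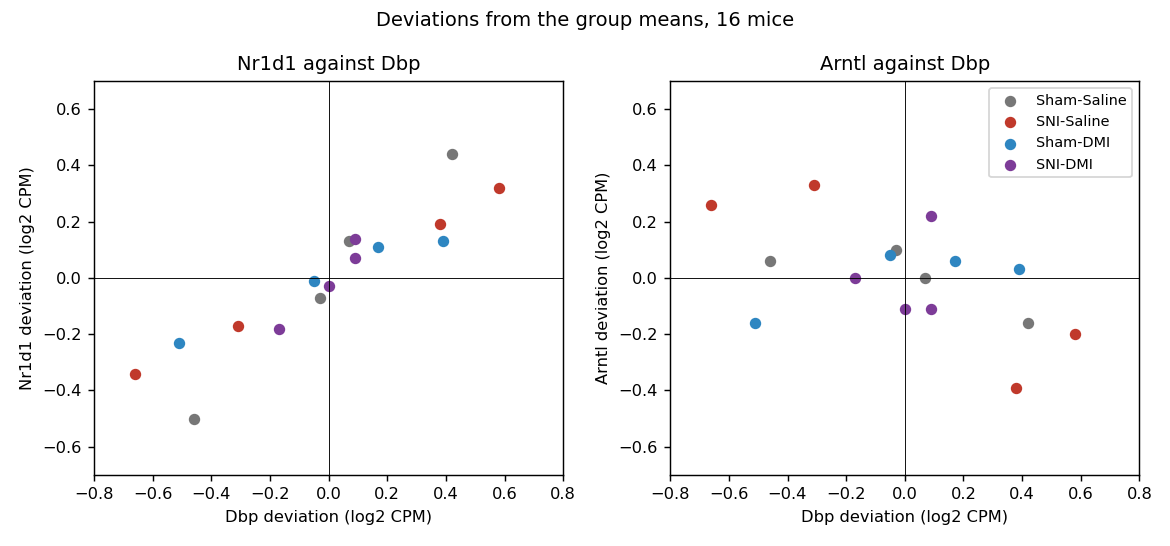
Deviations from the group mean in log2 CPM of Nr1d1 (left) and Arntl (right) against Dbp, 1 point per mouse and 1 colour per group. Nr1d1 follows Dbp in all groups (r = 0.92). Arntl falls as Dbp rises in the saline groups and not in the DMI groups (r = -0.53 over all 16 mice, which did not pass).

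Among 15740 further genes with a mean of at least 1 CPM, those whose deviations were most like Dbp's over the 16 libraries were Samd5 (r = 0.912), Arhgap31 (0.897), Tram2 (0.879), Tgfbr3 (0.878) and Cped1 (0.869). The most opposite were Sh3glb2 (-0.914), Amz2 (-0.889), Rabl2 (-0.884), Gm8930 (-0.876) and Rnf145 (-0.866). Of the wider clock genes, Bhlhe40 (0.804, rank 52), Hlf, a PAR bZIP factor related to Dbp (0.789, rank 76), and Ciart (0.724, rank 211) stood near the top. The wider list as a whole did not follow Dbp. Rora was at 0.426 (rank 1741), and others were negative, down to Nfil3 (-0.49, rank 14232) and Csnk1d (-0.503, rank 14363). For Arntl the most like were Ap3m2 (0.845), Adamts17 (0.824), Acsbg1 (0.819), Gm13110 (0.818) and Dnajb1 (0.811). Tef, the third PAR bZIP factor, was the most opposite of all (-0.832), followed by Gatad2b (-0.823), Igf1r (-0.820), Elk4 (-0.811) and Crebbp (-0.799). These are descriptions over libraries that share groups and sequencing depth, and carry no test.

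The wider clock list of 21 genes holds further activators, nuclear receptors, PAR bZIP factors, kinases and ligase subunits of the loop. In it 20 were tested, since Rorb had at most 6 reads in any library. With DMI, averaged over both surgeries, 6 of 20 were lower and 2 were higher by the edgeR test. Over all genes, 15.8% were called lower and 14.8% higher. Whether the list differs from all genes was not tested. Among the lower ones were Rora, a ROR receptor (-0.35, adjusted p = 0.00203), Ciart (-0.28, adjusted p = 0.0928), Wee1, a clock-controlled cell cycle kinase (-0.24, adjusted p = 0.0138), Fbxl21, a ligase subunit that acts on CRY (-0.24, adjusted p = 0.0488), and Nampt, an enzyme of NAD synthesis (-0.16, adjusted p = 0.0108). Nfil3, the repressor at D-boxes (0.25, adjusted p = 0.0418), and Timeless (0.21, adjusted p = 0.0151) were higher. With the GC content and length trends removed, Wee1 (-0.21, adjusted p = 0.0312), Ciart (-0.29, adjusted p = 0.0958), Nfil3 (0.22, adjusted p = 0.0845) and Timeless (0.23, adjusted p = 0.00621) were still called, and Rora (-0.10, adjusted p = 0.132), Fbxl21 (-0.10, adjusted p = 0.441) and Nampt (0.06, adjusted p = 0.381) were not. Ciart was called in 2 and Fbxl21 in 11 of the 16 fits with 1 library left out, and Ciart was not called with no filter, with the replicate block or with the surrogate variable.

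By surgery, the genes of the wider list reported here had Rora (-0.42, adjusted p = 0.00875) and Nampt (-0.24, adjusted p = 0.0121) lower and Timeless (0.20, adjusted p = 0.0995) higher with DMI in sham mice. Rora and Nampt were not called without the GC content and length trends (-0.11 and 0.02, so that Nampt turned sign), and Timeless was not called with the replicate block, the surrogate variable or the compared groups alone, and was called in 9 of 16 fits with 1 library left out. In SNI mice Wee1 was lower (-0.39, adjusted p = 0.0689) and Nfil3 was higher (0.44, adjusted p = 0.0906). Both calls were lost with the replicate block and without the GC content and length trends, that of Nfil3 also with the surrogate variable, and they were kept in 10 (Wee1) and 6 (Nfil3) of 16 fits with 1 library left out. SNI-Saline mice had 5.67, 6.08, 4.47 and 5.12 CPM of Nfil3. SNI-DMI mice had 6.55, 6.92, 6.66 and 8.73 CPM, without overlap, as for 7.33% of all genes in the higher direction. Over all genes, 23.4% were called for DMI in sham mice and 2.93% in SNI mice. For injury under DMI no gene of this list was called.

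Glucocorticoid-responsive genes and immediate early genes were counted because both respond to handling and to hormones that also set the clock. Of 13 glucocorticoid-responsive genes, DMI averaged over both surgeries lowered Klf9, a Krüppel-like factor (-0.32, adjusted p = 0.000451), and Sgk1 (-0.15, adjusted p = 0.0694) and raised Mt1, a metallothionein (0.42, adjusted p = 0.000391). Over all genes, 30.6% were called in this comparison. Fkbp5 (-0.02) and Tsc22d3 (0.09), the usual markers of glucocorticoid action, did not pass. With the GC content and length trends removed, Klf9 (-0.24) and Mt1 (0.37) were still called, Sgk1 (-0.09, adjusted p = 0.275) was not, and Tsc22d3 was (0.15, adjusted p = 0.0251). Injury under saline raised Mt1 (0.55, adjusted p = 0.00186) and Mt2 (0.51, adjusted p = 0.0180). Whether these lists differ from all genes was not tested. Of 9 immediate early genes none was called for DMI over both surgeries. In sham mice, where 23.4% of all genes were called, DMI raised Arc (0.47, adjusted p = 0.0324) and lowered Egr1 (-0.51, adjusted p = 0.0323). Injury under saline raised Arc (0.43, adjusted p = 0.0841). The last call was lost without the GC content and length trends (0.37, adjusted p = 0.211).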

How the data were processed

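RNA from the DRGs of 16 mice (4 per group) was sequenced by the authors as stranded mRNA libraries with paired reads of 50 bases. Reads were aligned to mm10 and counted per gene, and the submitters' processing notes name HISAT2, HTSeq and DESeq2; the versions of the aligner and counter, the annotation and the strand setting are not given in the sources used here. The deposited tables give raw counts, not normalized, for 52636 genes. The 5 closing lines of unassigned reads in each file were left out; 79.56% to 81.17% of reads were on genes. Symbols, coordinates and exon lengths come from GENCODE M21 on GRCm38, which holds 52403 of the IDs, and promoters from RefSeq on GRCm38.p6.

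Counts were filtered with filterByExpr (21371 genes kept), TMM-scaled and fitted with edgeR 4.0.16 in R 4.3.3 (quasi-likelihood test, 1 coefficient per group, 12 residual degrees of freedom), with calls at a Benjamini-Hochberg adjusted p under 0.1. The comparisons were injury under saline and under DMI, DMI under sham, under SNI and averaged over both, and the interaction. Alternatives were upper-quartile scaling, no filter on low counts, at least 10 counts in every library, a replicate block, DESeq2 1.42.0, the libraries of the compared groups alone, 1 surrogate variable (sva 3.50.0), trends on GC content and exon length removed (mgcv 1.9.3, 21324 genes), and each library left out. The surrogate variable was -0.840 in Sham-DMI replicate 3, the library with the fewest reads on genes, and -0.167 to 0.277 in all others. It thus largely set that 1 mouse apart. SNI-Saline replicates 3 and 4 were left out together in a fit chosen after seeing the data. Log2 CPM used a prior count of 2. Procedures were tested on simulated data.

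The members and lists were chosen with earlier results of these data known. All members are named, with called genes of the wider clock, glucocorticoid-responsive and immediate early lists, and the 5 genes most like and most unlike Dbp and Arntl. The results of 1 gene of the wider list are not reported here. Nothing in the sources says that replicates differ in more than the mouse; p-values measure the spread between these mice. The chi-square per gene between replicates was 10.4 to 44.3, far above counting error, so no 2 libraries were alike within sampling noise.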

Additional observations from a re-analysis of the deposited data

Results flagged for a closer look

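Of 120 sets of 4 mice (the 10 members and the tested wider clock genes, per group), 5 had 1 mouse far from the other 3 by Dixon's criterion, where chance alone flags about 1 in 20. Clock in Sham-Saline replicate 1 was at 107 CPM, with the others at 95.9 to 97.3. Nr1d2 in Sham-DMI replicate 1 was at 39 CPM, with the others at 50.4 to 52.0. Nfil3 in SNI-DMI replicate 4 was at 8.73 CPM, with the others at 6.55 to 6.92. Tef in SNI-DMI replicate 2 was at 129 CPM, with the others at 115 to 117. Csnk1e in Sham-Saline replicate 2 was lowest at 77.0 CPM, with the others at 81.1 to 81.8.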

How the results depend on the processing

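Asking for at least 10 counts in every library changed no member's call or direction. For injury under saline, 1 member was called in place of 2 with upper-quartile scaling, with no filter, with the replicate block, with the GC content and length trends removed and without SNI-Saline 3 and 4, and all genes called fell from 2571 to 1068 without the trends. For injury under DMI, 1 member was called in place of 0 with no filter and by DESeq2, and 86 genes became 310 with no filter, 473 by DESeq2, 9 in the libraries of the compared groups alone and 37 with 1 surrogate variable. For DMI under SNI, 1 member became 4 with no filter, 6 by DESeq2, 5 in the compared groups alone, 0 without the trends and 0 without SNI-Saline 3 and 4. There 626 genes became 172 with the replicate block, 1632 by DESeq2, 1812 in the compared groups alone, 268 with the surrogate variable, 153 without the trends and 7 without SNI-Saline 3 and 4. The interaction had 16 genes by DESeq2 and 2 without SNI-Saline 3 and 4, in place of 0. For DMI averaged over both surgeries, 5 members became 2 and 6542 genes became 4057 without SNI-Saline 3 and 4. Beyond the fewer samples or other tool that a setting names, the cause was not tested.

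Several log2FC that were not called turned sign. Without the GC content and length trends Nr1d2 was at 0.06 for injury under saline, Cry1, Nr1d1 and Dbp at -0.06, -0.09 and -0.10 for injury under DMI, and Arntl at 0.05 for DMI under sham. With the surrogate variable Nr1d1 and Dbp were at -0.02 and -0.04 for injury under DMI, and Cry1 at -0.0048 for DMI averaged. Without SNI-Saline 3 and 4 Per3, Nr1d1, Dbp and Arntl were at -0.12, -0.09, -0.06 and 0.10 for injury under saline, Per2 at 0.02 for DMI under SNI, and Per2, Per3, Nr1d1, Nr1d2 and Dbp at 0.14, 0.03, 0.10, 0.05 and 0.08 in the interaction. Of these Dbp moved farthest, from 0.49 for injury under saline and from -0.47 in the interaction.

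With each library left out in turn, members called ran from 1 to 2 for injury under saline, 0 to 1 for injury under DMI, 2 to 3 for DMI under sham, 0 to 4 for DMI under SNI and 5 to 7 for DMI averaged. All genes called ran from 682 (without Sham-Saline replicate 3) to 3286 for injury under saline, from 17 (without SNI-DMI replicate 4) to 850 (without Sham-DMI replicate 1) for injury under DMI, from 3286 to 6094 for DMI under sham, from 0 to 1842 (without Sham-DMI replicate 1) for DMI under SNI, from 0 to 1 for the interaction and from 5207 to 7241 for DMI averaged. The log2FC that turned sign ran from -0.04 to 0.06 for Per1, -0.14 to 0.06 for Per2 and -0.10 to 0.04 for Nr1d2 (injury under saline), from -0.23 to 0.02 for Per3, -0.05 to 0.05 for Cry1, -0.05 to 0.04 for Cry2, -0.07 to 0.09 for Nr1d1 and -0.14 to 0.15 for Dbp (injury under DMI), from -0.17 to 0.02 for Per2 (interaction) and from -0.01 to 0.06 for Cry1 (DMI averaged).

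Whether replicate numbers pair the samples was not tested against chance. Deviations of same-numbered libraries correlated at -0.08 to 0.18, over 0.1 in 5 of 24 pairs. Of 16 libraries, 7 correlated best with their own number. The replicate block ended the call for Cry1 under injury and no other member's call. Of the correlations, 7 pairs passed by r, 6 by rho and 8 with upper-quartile scaling. All 7 kept their sign without the 2 mice farthest from the median of the pair's first-named gene. With 4 mice per group, the spread between mice and not the depth limits these comparisons.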
